A study of Rattus norvegicus with 24 samples.

Results

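The rat miR-29 family was measured in lung tissue of Fischer-344 rats exposed to hexanal vapour, a volatile aldehyde released by wood and building materials. Its 3 members, rno-miR-29a-3p, rno-miR-29b-3p and rno-miR-29c-3p, are the 3p arms carried under these names in the scanner files. They are 3 of 719 rat miRNAs on the array, of which 283 were above background often enough to be tested, the members among them. The control group breathed filtered clean air, and the exposed groups breathed hexanal at 600, 1000 or 1500 ppm. Each of the 4 groups held 6 rats, 3 male and 3 female, and each rat had its own single-colour array made from 100 ng of total lung RNA. The rats were 7 to 8 weeks old at the start, and the labels give an exposure of 4 hours a day on 5 days a week for 5 weeks. The labels also give the same dose numbers in milligrams per cubic metre, so that ppm serves here as the name of the dose. The methods of the study give ppm and a shorter duration than the labels, and neither the scale nor the duration was settled for these arrays. The p-values measure the spread between these rats. Whole lung was measured, and a lower level from fewer cells that make a miRNA cannot be told apart from less of it per cell.

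A miRNA is cut from a hairpin precursor, loaded into an Argonaute protein and guided to messenger RNAs by its seed, the bases near its 5′ end. The miR-29 family is known for repressing messenger RNAs of collagens, elastin and fibrillin, which form the extracellular matrix, and those of the DNA methyltransferases Dnmt3a and Dnmt3b. In lung it is described as a brake on fibrosis, the scarring in which fibroblasts lay down collagen.

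The mature sequences are shown first because the members differ by few bases, which bears on how far the array can separate them. They come from RefSeq for the rat assembly GRCr8, are written 5′ to 3′, and have the seed (bases 2 to 8) in capitals.
rno-miR-29a-3p: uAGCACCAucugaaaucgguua
rno-miR-29b-3p: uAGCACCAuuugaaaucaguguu
rno-miR-29c-3p: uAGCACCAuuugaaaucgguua

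All 3 members share the seed AGCACCA, and none of the other mature entries among the 693 searched for the rat holds it at these bases. Counted from the 5′ end, rno-miR-29c-3p differs from rno-miR-29a-3p by C10U alone, with 21 of 22 bases the same. The changes from rno-miR-29a-3p to rno-miR-29b-3p are C10U, G18A, U21G and A22U, and rno-miR-29b-3p has 23 bases. The GC content is 40.9% in rno-miR-29a-3p, 34.8% in rno-miR-29b-3p and 36.4% in rno-miR-29c-3p. The probe sequences were not used here, and reading of one member by a probe for another was not tested.

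The members come from 4 hairpins at a pair of loci. Mir29a (chr4:60617955-60618042) and Mir29b1 (chr4:60618334-60618414) lie on the minus strand of chromosome 4 in GRCr8, and Mir29b2 (chr13:109098831-109098911) and Mir29c (chr13:109099359-109099446) lie on the plus strand of chromosome 13. The chromosome 13 hairpins lie within the span of the long non-coding RNA gene LOC102550527, and the nearest protein-coding genes are Klf14 for the first locus and Cd46 for the second. The hairpins of Mir29b1 and Mir29b2 are shown because both give the same 23 bases of rno-miR-29b-3p, in capitals, so that 1 measured level stands for both loci.
Mir29b1: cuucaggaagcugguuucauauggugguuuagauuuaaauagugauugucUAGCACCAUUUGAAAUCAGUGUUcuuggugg
Mir29b2: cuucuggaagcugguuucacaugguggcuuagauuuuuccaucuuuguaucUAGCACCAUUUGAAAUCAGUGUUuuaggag

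The arrays lay on 3 slides of 8, each scanned as 1 group, and the slides did not hold the groups evenly. Slide 1 held males only, with 3 controls, 3 at 600 ppm and 2 at 1000 ppm. Slide 2 was mixed: its 4 females were 3 controls and 1 rat at 600 ppm, and its 4 males 1 rat at 1000 ppm and 3 at 1500 ppm. Slide 3 held females only, namely 3 from each of the 1000 and 1500 ppm groups and 2 from the 600 ppm group. The males at 1500 ppm were therefore on another slide than every male control, and the females at 1000 and 1500 ppm on another slide than every female control. Between 27.9 and 38.5% of the spots of an array were above background, and no spot was saturated.

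No member of the miR-29 family passed the threshold against control at any dose with both sexes in the comparison. The groups overlapped control for all 3 members at all 3 doses. Of the 283 miRNAs tested, 0% passed at 600, 1000 or 1500 ppm, for any dose or for the linear trend (adjusted p under 0.05, limma), while 5, 17, 26, 15 and 29 had an unadjusted p under 0.05. The members' count of 0 is thus that of the whole array. Levels are given as log2 of the scaled intensity, in which 1 unit is a doubling of the brightness.

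In control lungs rno-miR-29a-3p ranged from 12.80 to 13.01 with a median of 12.88. At 600 ppm it ranged from 12.70 to 13.16 with a median of 12.88, and at 1000 ppm from 12.78 to 13.14 with a median of 12.95. At 1500 ppm it ranged from 12.86 to 13.21 with a median of 13.04. The control range lay within the 600 ppm range, and 4 of 6 rats at 1500 ppm were above the control mean. The group means were 12.90 ± 0.08, 12.91 ± 0.21, 12.93 ± 0.14 and 13.02 ± 0.14 (SD, n = 6) from control to the highest dose. The difference at 1500 ppm was 0.13 ± 0.09 (SE), with a 95% confidence interval from -0.05 to 0.30 and an adjusted p of 0.526 (limma).

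The level of rno-miR-29b-3p, the member made from both loci, ranged from 12.25 to 12.43 in control lungs with a median of 12.28. It ranged from 12.12 to 12.60 at 600 ppm with a median of 12.25, and from 12.25 to 12.61 at 1000 ppm with a median of 12.38. At 1500 ppm it ranged from 12.32 to 12.58 with a median of 12.37. All 6 rats at 1500 ppm were above the control mean, but the highest control lay above 4 of them. The group means were 12.30 ± 0.07, 12.33 ± 0.20, 12.39 ± 0.14 and 12.43 ± 0.12 (SD, n = 6). The difference at 1500 ppm was 0.13 ± 0.08 (SE), with a 95% confidence interval from -0.04 to 0.30 and an adjusted p of 0.50 (limma).

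The level of rno-miR-29c-3p ranged from 11.67 to 12.10 in control lungs with a median of 11.91, the widest control range of the family. It ranged from 11.76 to 12.06 at 600 ppm with a median of 11.97, and from 11.81 to 12.05 at 1000 ppm with a median of 11.99. At 1500 ppm it ranged from 11.75 to 12.00 with a median of 11.83. The 1500 ppm range lay within the control range, and 2 of 6 rats were above the control mean. The group means were 11.90 ± 0.20, 11.96 ± 0.11, 11.95 ± 0.11 and 11.86 ± 0.11 (SD, n = 6). The difference at 1500 ppm was -0.05 ± 0.08 (SE), with a 95% confidence interval from -0.21 to 0.12 and an adjusted p of 0.810 (limma).

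At the lower doses the differences from control were smaller than their errors for rno-miR-29a-3p (0.02 at 600 ppm and 0.04 at 1000 ppm) and rno-miR-29c-3p (0.05 at both). For rno-miR-29b-3p they were 0.04 and 0.10, and the adjusted p-values of the family at these doses lay between 0.950 and 0.996 (limma). The trend per 1000 ppm was 0.08 for rno-miR-29a-3p, 0.09 for rno-miR-29b-3p and -0.03 for rno-miR-29c-3p, with adjusted p of 0.517, 0.492 and 0.806. Ordered by mean, the groups ran control, 600, 1000 and 1500 ppm for rno-miR-29a-3p and rno-miR-29b-3p. For rno-miR-29c-3p the order was 1500 ppm, control, 1000 and 600 ppm. No neighbours in these orders differed by more than the larger of their SDs, and the orders changed with the processing. At 600 ppm rno-miR-29a-3p lay below control after quantile normalization (-0.050), after normexp background correction (-0.068), with the brightest probe (-0.013), in the unscaled value table (-0.055) and without control male 3 or any 1 of the 3 females at 600 ppm (lowest -0.034). At 1000 ppm it was -0.0040 with slide in the fit. At 600 ppm rno-miR-29b-3p was -0.044 after normexp, -0.028 in the unscaled value table and -0.013 or -0.017 without female 27 or 28.

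**Figure D1:**
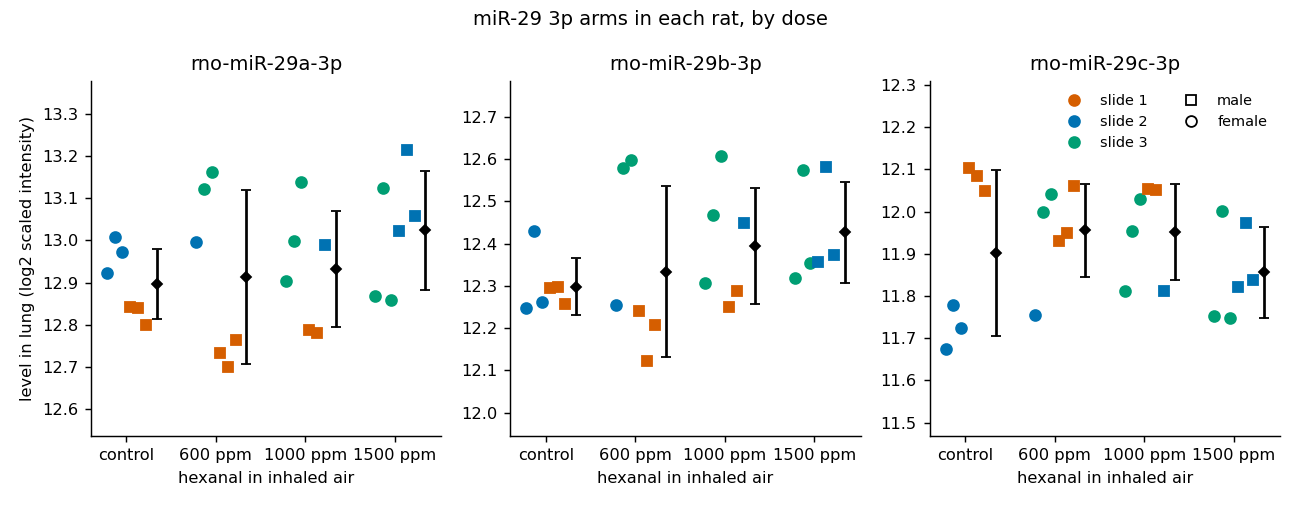
Level of each miR-29 member in lung (log2 scaled intensity) in each rat, by hexanal dose. Squares are males and circles females, colours are slides, and the black diamond with bars is the mean ± SD of 6 rats. The exposed rats overlap the controls for every member, and the slide 1 males (orange) are low in rno-miR-29a-3p and high in rno-miR-29c-3p, where 3 control males lie between 12.05 and 12.10.

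Taken 1 factor at a time, slide and sex each went with more of the members' variance than dose group did. These shares overlap, since slide 1 held males only and slide 3 females only. Slide accounted for 62.4% of the variance of rno-miR-29a-3p over the 24 rats, 47.3% for rno-miR-29b-3p and 54.0% for rno-miR-29c-3p, against a median of 37.6% over all tested miRNAs. Dose group accounted for 11.6, 13.4 and 9.59% in the same order, against a median of 13.8%. Sex accounted for 19.9, 15.1 and 21.0%, against 17.4%. The SDs over 24 rats were 0.15, 0.14 and 0.13, below the median of 0.18 over all tested miRNAs.

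Males and females did not differ past the threshold for any member, while 43.8% of tested miRNAs did. Of these 124 miRNAs 46 were higher in males, against 50 of 83 with the percentile over all probes, 70 of 110 after quantile normalization, 81 of 96 with the total gene signal and 48 of 52 in the unscaled value table. The male minus female difference was -0.13 for rno-miR-29a-3p (adjusted p = 0.0644), -0.11 for rno-miR-29b-3p (0.108) and 0.12 for rno-miR-29c-3p (0.0622). The sexes shared only slide 2, so that sex and slide overlap in this comparison. With slide in the fit the difference was 0.20 for rno-miR-29a-3p (adjusted p = 0.293) and 0.26 for rno-miR-29b-3p (0.197), the opposite sign, and with slide as a random block 0.034 and 0.072.

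The dose by sex interaction passed for rno-miR-29a-3p (F = 6.78, adjusted p = 0.0199, limma), 1 of 3 members, while 25.1% of tested miRNAs passed this test. The interaction gave F = 1.84 for rno-miR-29b-3p (adjusted p = 0.280) and F = 3.04 for rno-miR-29c-3p (0.130). In males at 1500 ppm rno-miR-29a-3p was higher than in male controls by 0.27 ± 0.08 (SE, adjusted p = 0.0109), with all 3 males between 13.02 and 13.21 and the 3 male controls between 12.80 and 12.84. These males were on slide 2 and their controls on slide 1, so that dose and slide cannot be told apart between them. Of the 3 males at 1000 ppm, male 13 on slide 2 stood at 12.99 and the 2 on slide 1 at 12.78 and 12.79. In the comparison of males at 1500 ppm with male controls 36% of tested miRNAs passed. With slide in the fit 0 members passed in this comparison or for the interaction. The difference became -0.05 after quantile normalization and -0.36 in the unscaled value table of the series. Without 1500 ppm male 17 it was 0.21, with an adjusted p of 0.0743, and the interaction of rno-miR-29a-3p was F = 4.96 (0.0544), or F = 5.05 (0.0540) without 1500 ppm female 36.

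The other members did not pass in these males, with 0.15 for rno-miR-29b-3p (adjusted p = 0.246) and -0.20 for rno-miR-29c-3p (0.0845). In females at 1500 ppm, where 0% of miRNAs passed, the differences from control were -0.02, 0.10 and 0.11 for rno-miR-29a-3p, rno-miR-29b-3p and rno-miR-29c-3p. The difference between the sexes in the effect of 1500 ppm was 0.29 for rno-miR-29a-3p (adjusted p = 0.0566), 0.05 for rno-miR-29b-3p (0.793) and -0.31 for rno-miR-29c-3p (0.0614), and 35.3% of miRNAs passed. At 600 ppm no member passed in males (0% of miRNAs passed) or in females (0%), nor at 1000 ppm in males (1.06%) or females (0%). The largest of these differences were those of rno-miR-29c-3p in females, 0.21 at both doses, with adjusted p of 0.424 and 0.232.

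**Figure D2:**
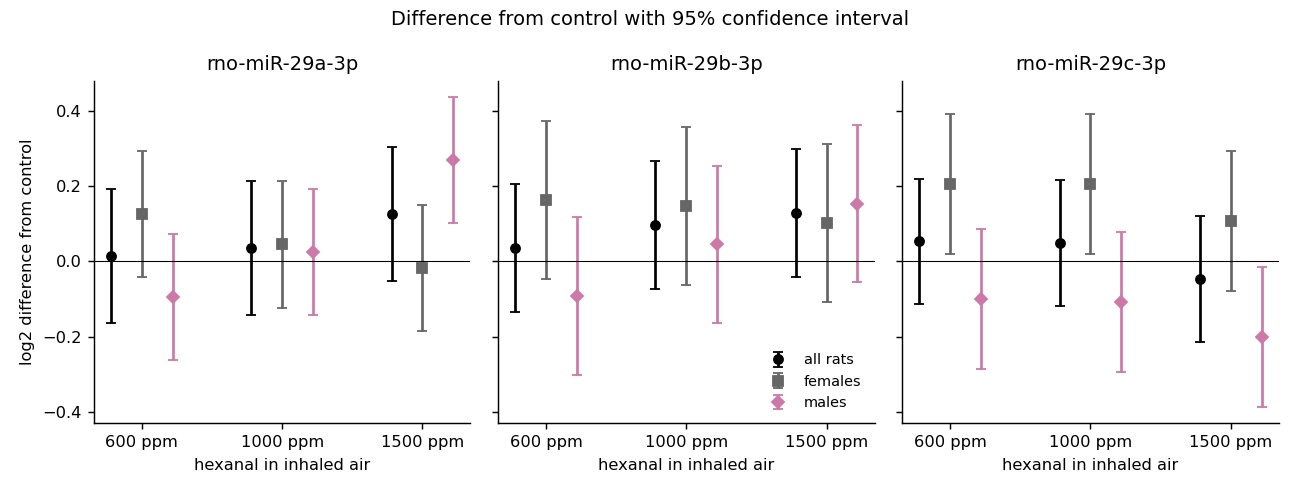
Difference from control (log2) of each miR-29 member at each hexanal dose, for all rats (black circles, 6 against 6), females (grey squares) and males (pink diamonds, 3 against 3 in each sex), with 95% confidence intervals of the limma fits. Over all rats every interval holds 0, and in males at 1500 ppm rno-miR-29a-3p stands at 0.27 and rno-miR-29c-3p at -0.20.

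Some doses could be compared on 1 slide and within 1 sex, and there no member passed the threshold, with 2 or 3 rats in each group. Among slide 1 males the difference from control at 600 ppm was -0.09 for rno-miR-29a-3p (adjusted p = 0.634, 3 rats against 3), -0.09 for rno-miR-29b-3p and -0.10 for rno-miR-29c-3p (both 0.671), and 0.353% of miRNAs passed. At 1000 ppm (2 rats against 3, 0% passed) it was -0.04, -0.01 and -0.03. All 3 members thus had means below control in the exposed males of this slide, by no more than 0.10. The median over all 283 miRNAs was 0.01 at 600 ppm and -0.04 at 1000 ppm in these males. Among slide 3 females, rats at 1500 ppm minus rats at 600 ppm (3 against 2) gave -0.19 for rno-miR-29a-3p, -0.17 for rno-miR-29b-3p and -0.19 for rno-miR-29c-3p. The adjusted p-values were 0.529, 0.546 and 0.529 (limma), and 0% of miRNAs passed. The median over all 283 miRNAs in this comparison was -0.07.

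The slides themselves were compared with dose group and sex in the fit. Any difference between slides passed for all 3 members (rno-miR-29a-3p F = 10.9, adjusted p = 0.00247; rno-miR-29b-3p F = 7.32, 0.0116; rno-miR-29c-3p F = 9.10, 0.00530), and for 48.1% of tested miRNAs. On slide 2 rno-miR-29a-3p was 0.37 higher than on slide 1 (adjusted p = 0.000834) and rno-miR-29b-3p 0.28 higher (0.0108), whereas rno-miR-29c-3p stood at -0.09 (0.379), and 38.9% of miRNAs passed. Slide 3 minus slide 1 was 0.50 for rno-miR-29a-3p (0.0111) and 0.55 for rno-miR-29b-3p (0.0107), with 0.17 for rno-miR-29c-3p (0.360) and 20.8% of miRNAs passed. Slide 3 minus slide 2 was 0.26 for rno-miR-29c-3p (0.0471), 0.26 for rno-miR-29b-3p (0.0730) and 0.13 for rno-miR-29a-3p (0.387), and 7.42% of miRNAs passed. The members were not tested against each other here. These fitted values differ from the plain slide means, since sex and dose are mixed with slide. The plain means on slides 1, 2 and 3 were 12.78, 13.02 and 13.02 for rno-miR-29a-3p and 12.24, 12.37 and 12.48 for rno-miR-29b-3p. For rno-miR-29c-3p they were 12.03, 11.80 and 11.92, so that slide 3 lay below slide 1 in the plain means and above it in the fit.

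Each member is read by 2 probes, each with 6 to 10 spots per array in use, and all their spots were above background on every array. The SD between spots of a probe had a median of 0.08, and the highest on any array was 0.47, for probe 1 of rno-miR-29c-3p. The probes of rno-miR-29a-3p did not move alike between slides. Its probe 1 had means of 12.43, 12.39 and 12.43 on slides 1, 2 and 3 (any slide, adjusted p = 0.217), and its probe 2 means of 13.13, 13.66 and 13.62 (4.22e-06). For probe 2 the 8 arrays of slide 1 lay between 13.03 and 13.22, and the lowest of slides 2 and 3 were 13.57 and 13.45, with no overlap. Of 555 single probes, 51.7% passed for any slide.

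The probes of rno-miR-29b-3p showed the same split in part, with means of 12.15, 12.09 and 12.23 for probe 1 (adjusted p = 0.0162) and 12.34, 12.65 and 12.72 for probe 2 (0.000598). For rno-miR-29c-3p both probes were highest on slide 1, with 11.95, 11.67 and 11.79 for probe 1 (0.00503) and 12.12, 11.92 and 12.04 for probe 2 (0.00796). The higher level of rno-miR-29a-3p in males at 1500 ppm was measured by probe 2, which stood 0.53 above the male controls (adjusted p = 0.000887), while probe 1 stood at 0.01 (0.945). For rno-miR-29b-3p probe 2 gave 0.34 (0.0169) and probe 1 -0.03 (0.831), and for rno-miR-29c-3p the probes gave -0.26 (0.0365) and -0.15 (0.204), where 42.7% of single probes passed. The interaction of dose and sex passed for probe 2 of rno-miR-29a-3p (F = 9.39, adjusted p = 0.00759) and not for probe 1 (F = 2.36, 0.202), and 30.8% of single probes passed. The difference between the probes of a member was not itself tested.

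**Figure D3:**
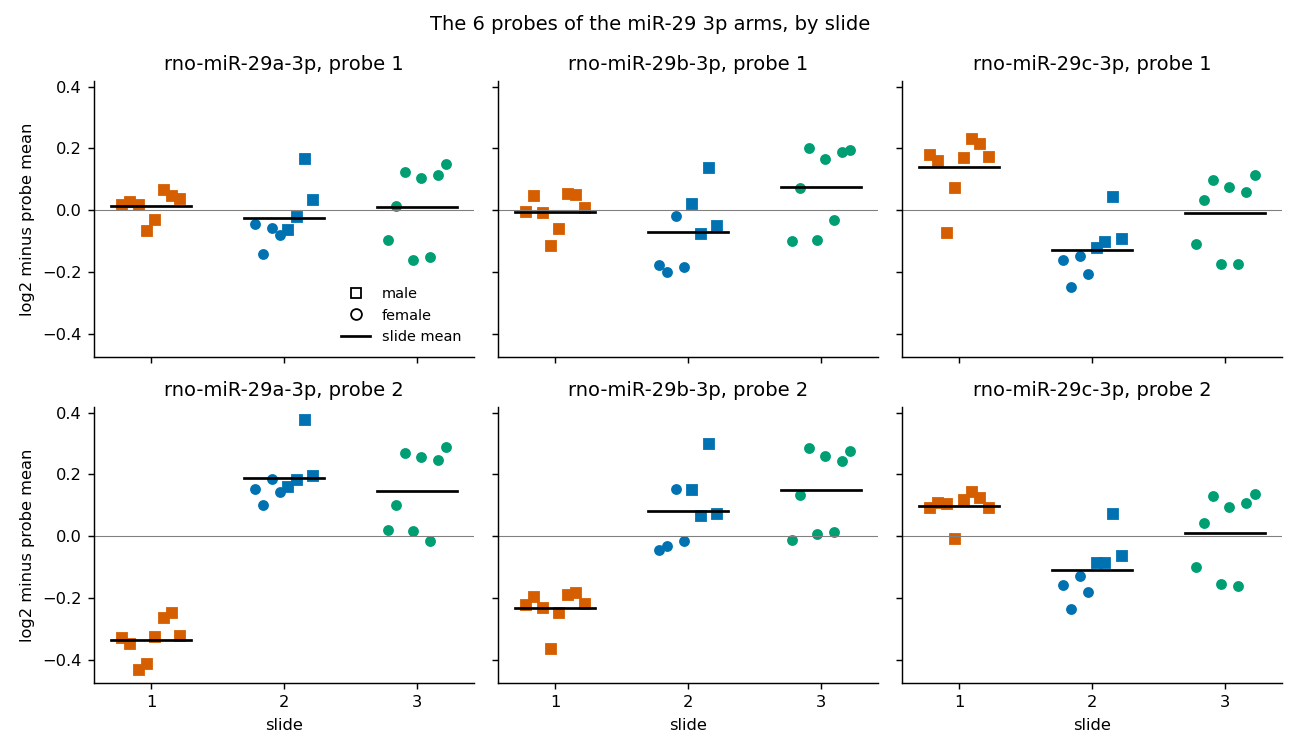
Level of each of the 6 probes of the miR-29 members on each array, as log2 minus the probe's own mean over 24 arrays, by slide (squares males, circles females, black lines slide means). Probe 2 of rno-miR-29a-3p is lower on all 8 arrays of slide 1 than on any other array, while its probe 1 has slide means between 12.39 and 12.43 before centring.

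Differences between members on the same array remove what all probes of an array share. The difference rno-miR-29c-3p minus rno-miR-29a-3p averaged -0.75 ± 0.03 (SD, n = 8) for slide 1, against -1.23 ± 0.03 for slide 2 and -1.10 ± 0.03 for slide 3, and slide 1 did not overlap the others. Its 3 control males on slide 1 averaged -0.75 and its 3 control females on slide 2 averaged -1.24. On slide 2 the 4 males, at 1000 and 1500 ppm, averaged -1.21 ± 0.03 and the 4 females, control and 600 ppm, averaged -1.24 ± 0.01. Males at 1000 ppm were on both slides, where the 2 on slide 1 averaged -0.73 and the 1 on slide 2 stood at -1.18. Within slide 1 the control, 600 ppm and 1000 ppm males averaged -0.75, -0.75 and -0.73. The parts of slide, sex and dose in these values were not tested apart. The slide 2 minus slide 1 difference was -0.48 and the slide 3 minus slide 1 difference -0.36, each with an adjusted p of 0.000280 in an exact two-sided permutation test over 8 arrays against 8 (p = 0.000155 is the smallest it allows, and 9 tests were run). These slide tests were chosen after the values had been seen, and the slides differ in sex and dose as well.

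The difference rno-miR-29b-3p minus rno-miR-29a-3p averaged -0.54, -0.65 and -0.55 on slides 1, 2 and 3, and rno-miR-29c-3p minus rno-miR-29b-3p averaged -0.21, -0.57 and -0.56. Between exposed and control rats none of these differences changed past the threshold (9 exact two-sided permutation tests of 6 rats against 6, smallest adjusted p = 0.539). The largest exposed minus control values were at 1500 ppm, -0.17 for rno-miR-29c-3p minus rno-miR-29a-3p and -0.18 for rno-miR-29c-3p minus rno-miR-29b-3p. The 1500 ppm group has no array on slide 1, and the control group has 3. With slide means removed these values were 0.0062 and -0.00072. Control and 1500 ppm rats share only slide 2, and there they differ in sex. Removing slide means therefore also takes out part of any dose difference, and these values cannot separate dose from slide.

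**Figure D4:**
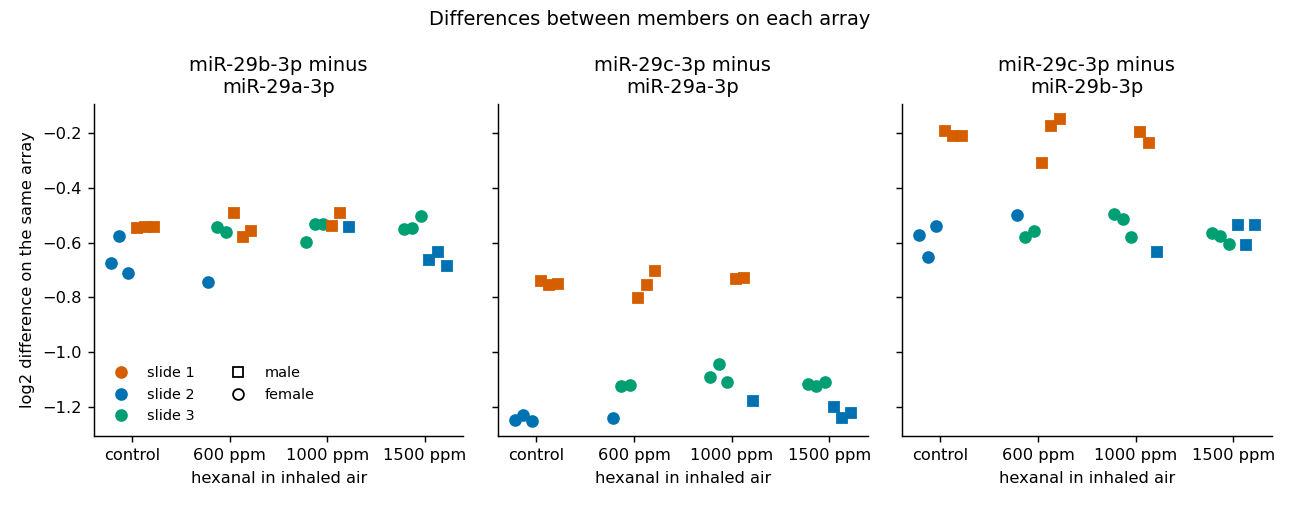
Difference between 2 miR-29 members on the same array (log2) for each rat, by hexanal dose, with squares for males, circles for females and colours for slides. In the middle panel the slide 1 arrays lie between -0.80 and -0.70 at every dose they hold, above all arrays of the other slides.

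The members rose and fell together from rat to rat within a slide. For rno-miR-29a-3p and rno-miR-29c-3p, Pearson's r was 0.899, 0.958 and 0.979 on slides 1, 2 and 3 (8 rats each, exact permutation test, p adjusted over 18 relations of 0.00568, 0.000765 and 7.44e-05), and Spearman's rho was 0.762, 0.929 and 1. Over all 24 rats, which fall into clusters by slide, r was -0.103 and rho -0.18 (permutation test, adjusted p over 3 pairs of 0.632 and 0.60), and without the 2 rats farthest from the median r was -0.115. With slide means removed r was 0.961. The relation over all rats and the relation within slides thus differ in sign.

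For rno-miR-29a-3p and rno-miR-29b-3p, r was 0.884 and rho 0.867 over 24 rats (permutation test, both adjusted p = 3e-05), 0.857 without the 2 rats farthest from the median, and 0.858, 0.819 and 0.979 on slides 1, 2 and 3. For rno-miR-29b-3p and rno-miR-29c-3p, r was 0.173 and rho 0.027 over 24 rats (permutation test, adjusted p = 0.628 and 0.901), 0.0639 without the 2 farthest, and 0.673, 0.893 and 0.960 within slides. On slide 1 this last value did not pass (exact permutation test, adjusted p = 0.0867). Over the 15 pairs of single probes, r with slide means removed lay between 0.799 and 0.983, against -0.436 to 0.941 without that step. The 2 probes of rno-miR-29a-3p correlated at 0.21 over 24 rats and at 0.93 with slide means removed. These values share the array, its scaling and nearly the same target sequence.

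**Figure D5:**
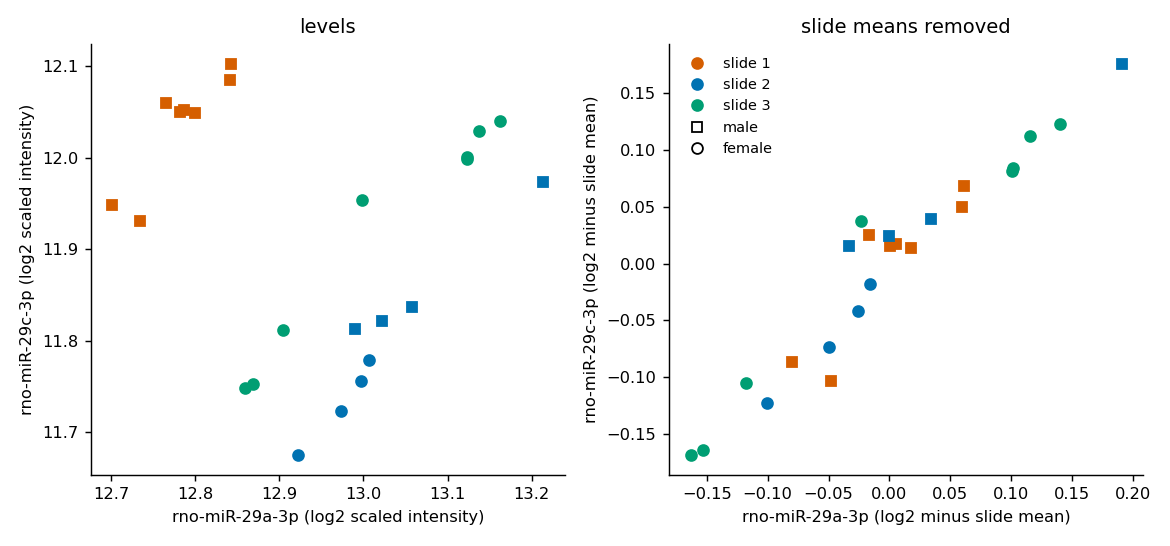
Level of rno-miR-29c-3p against that of rno-miR-29a-3p in 24 rats, as measured (left, log2 scaled intensity) and with the mean of each slide removed (right); squares are males, circles females, colours slides. On the left r is -0.103, and the slide 1 males lie apart at the upper left; on the right r is 0.961.

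The tested miRNAs whose pattern was most like that of the members, by the mean r to all 3 with slide means removed over 24 rats, were rno-miR-101a-3p (0.786), rno-miR-26b-5p (0.734), rno-miR-29c-5p (0.703), rno-miR-101b-3p (0.693) and rno-miR-33-3p (0.682). The median over the 280 tested miRNAs that are not members was 0.146. Without that step the values of the 5 were 0.0352, 0.461, 0.556, 0.192 and 0.429, so that the likeness of rno-miR-101a-3p was seen only after slide means were removed.

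The 5p arms are the other strands of the same hairpins, usually the less stable product, and have seeds of their own. Those of rno-miR-29a-5p and rno-miR-29c-5p, again in capitals, show that neither shares the seed of the 3p arms.
rno-miR-29a-5p: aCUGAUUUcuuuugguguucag
rno-miR-29c-5p: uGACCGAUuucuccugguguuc

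Of the 4 arms of this kind on the array, rno-miR-29a-5p and rno-miR-29c-5p were above background on all 24 arrays, rno-miR-29b-2-5p on 1 and rno-miR-29b-1-5p on 0. No dose comparison passed for rno-miR-29a-5p, whose differences from control ran 0.06, -0.06 and -0.33 in order of dose, and adjusted p of 0.996, 0.991 and 0.50 (limma). For rno-miR-29c-5p the differences were 0.04, 0.06 and 0.00. The arm rno-miR-29a-5p followed the slides more closely than its 3p partner, with 96.0% of its variance between slides and means of 5.25, 4.45 and 4.59 on slides 1, 2 and 3 (any slide, adjusted p = 7.20e-09). It was 0.46 higher in males than in females (adjusted p = 0.00160), and in males at 1500 ppm it was lower than in male controls by 0.79 (value -0.79, adjusted p = 0.000491), again between slides 2 and 1. With slide in the fit these values of rno-miR-29a-5p were 0.18 for sex (adjusted p = 0.249) and -0.03 in males at 1500 ppm (1), and with normexp background correction -0.16 for sex (0.545) and -0.05 in males (0.99), so that neither call held. Without either step rno-miR-29a-3p stood at 0.27 in these males, on the other side of control from rno-miR-29a-5p. The value of rno-miR-29a-3p was 0.53 by probe 2, 0.01 by probe 1 and -0.05 after quantile normalization. The intensity of rno-miR-29a-5p lay between 20.1 and 41.1 over the 24 rats, against a floor of 11.3. For rno-miR-29c-5p, which was 0.18 higher on slide 2 than on slide 1 (adjusted p = 0.0416), any slide gave an adjusted p of 0.0774, and males minus females stood at -0.03 (0.561).

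On the strand opposite to the 3p arms lie rno-miR-3556a, rno-miR-3587 and rno-miR-3556b, whose mature sequences overlap rno-miR-29a-3p, rno-miR-29b-3p and rno-miR-29c-3p by 18, 21 and 20 bases. All 3 were above background on 0 of 24 arrays.

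Other miRNAs of the same fields were taken from lists. Of 22 miRNAs known to promote or restrain fibrosis, such as rno-miR-21-5p, 21 were tested and 0 passed at any dose. The 14 restraining ones had median differences from control of 0.05, -0.001 and 0.08 at 600, 1000 and 1500 ppm. The 7 promoting ones had medians of 0.08, 0.08 and 0.02. Over the 21 together they were 0.08, 0.05 and 0.07, against 0.02, -0.01 and 0.00 over all 283. Those with the smallest p for any dose were rno-miR-21-5p, known to promote fibroblast activation (F = 2.88, adjusted p = 0.711, 0.19 at 1500 ppm), and rno-miR-27a-3p, listed as restraining it (F = 2.51, 0.711, 0.15 at 1500 ppm). Of 9 miRNAs known to target DNA methyltransferase messenger RNAs, 8 were tested and 0 passed, with medians of 0.02, 0.01 and -0.02. Those with the smallest p were rno-miR-143-3p (F = 2.07, adjusted p = 0.711, -0.03 at 1500 ppm) and rno-miR-185-5p (F = 1.69, 0.711, 0.15 at 1500 ppm).

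In comparisons that cross slides, list members passed as well. In males at 1500 ppm 9 of 21 fibrosis miRNAs passed (7 higher) and 5 of 8 methyltransferase miRNAs (2 higher), where 36% of all tested miRNAs passed. Directions in that comparison depend on the scaling, since 57 of 102 calls over the whole array were higher in these males, against 113 of 145 with the percentile over all probes and 1 of 197 in the unscaled value table. For any slide 11 of 21 and 6 of 8 passed, against 48.1% of all, and for sex 8 of 21 and 5 of 8, against 43.8%. The lists share rno-miR-143-3p and rno-miR-101a-3p.

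The labelled tissue was checked against miRNAs known for its cell types. All 7 epithelial miRNAs, both endothelial ones (rno-miR-126a-3p and rno-miR-126a-5p), 4 of smooth muscle and fibroblasts, 4 of leukocytes and 2 of red cells were above background on 24 arrays. The brain miRNA rno-miR-124-3p and the skeletal muscle miRNA rno-miR-206-3p were above background on 0 arrays. The other striated muscle miRNAs, rno-miR-1-3p, rno-miR-133a-3p and rno-miR-133b-3p, were above it on 18, 21 and 24 arrays. The liver miRNA rno-miR-122-5p was above it on 21. The summed intensity of the epithelial miRNAs ranged from 3807 to 5341 in control rats, 4367 to 5594 at 600 ppm, 4528 to 6457 at 1000 ppm and 4493 to 5508 at 1500 ppm, and all 7 had a mean above control at each dose with 0 past the threshold. That of the miRNAs of smooth muscle and fibroblasts, which include cells that make collagen, ranged from 8279 to 10166 in control rats and from 8452 to 9651 at 1500 ppm. That of the leukocyte miRNAs ranged from 3375 to 4999 and from 3184 to 4728, and that of the red cell miRNAs from 1076 to 3149 and from 1046 to 2417. The summed intensity of the 3 striated muscle miRNAs tested ranged from 155 to 386 in control rats and 165 to 571 at 600 ppm. It ranged from 189 to 1332 at 1000 ppm and 128 to 1175 at 1500 ppm. All 3 also had a mean above control at each dose with 0 past the threshold, and their differences at 1000 ppm ran from 0.92 to 1.81. From control to the highest dose the sums averaged 9303, 9810, 9820 and 9062 for smooth muscle and fibroblasts. Those of leukocytes averaged 4097, 3614, 3958 and 4024, and all 4 leukocyte miRNAs had means below control at 600 ppm. Those of endothelium averaged 14548, 14832, 13957 and 13992, and those of red cells 1855, 2220, 2167 and 1760. The share of all tested miRNAs above control was not compared with the 7 epithelial or the 3 striated muscle ones, and no cell type was tested as a set. The part of these cell types in the levels of the miR-29 members was not tested.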

How the data were processed

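Total lung RNA of 24 rats was hybridised to single-colour (Cy3) Agilent rat miRNA arrays. The authors deposited 1 scanner file per array from Feature Extraction 11.5.1.1 with spot intensity after background correction and no scaling between arrays; the header names build rn4. The deposited value table of the series holds the total gene signal of the same arrays, an intensity floored at 1 and unscaled. The methods of the study do not describe these arrays.

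Control and outlier spots were dropped. Intensity was divided by each array's 75th percentile over 394 probes well above background on all arrays (662 to 1226 before scaling), multiplied by 865, floored at 11.3 (8.59% of kept spots) and taken to log2. Probes well above background on at least 6 of 24 arrays were kept (555 of 1730), and the probes of a miRNA were averaged. Tests used limma 3.58.1 in R 4.3.3 with data.table version 1.17.8, two-sided, with Benjamini-Hochberg adjustment over 283 miRNAs and a threshold of 0.05. The dose comparisons share a single limma model with a mean per dose group (20 residual degrees of freedom). Sex was fitted with dose group, the interaction and the within-sex effects with a mean per dose and sex, slides with dose group and sex, and within-slide comparisons on the arrays of that slide alone. Correlations used 100000 permutations, or all of them within a slide. Methods were tested on simulated data.

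The members and lists were chosen with earlier results of these data known. The members, their probes and 5p arms, other miRNAs with the seed, the 5 most alike and, per list, those past the threshold or the 2 with the smallest p for any dose were named. Alternatives were other scalings, background corrections, filters, floors and signals, the brightest probe, the series table, slide or sex in the fit, separate fits, other eBayes options, the methods' t-test and leaving out each array. Single probes and the slide tests of differences between members were chosen after seeing the data. The number of arrays limits the precision.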

Additional observations from a re-analysis of the deposited data

Results flagged for a closer look

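In 3 of 32 checks, each of 1 miRNA or 1 difference between members in a dose group of 6 rats, 1 rat stood apart from the others. Chance would give about 1.6 if the checks were independent. They share rats and values, and the groups mix slides, so that this number is only a rough guide. For rno-miR-29b-3p in control this was female 22 at 12.43, against 12.27 ± 0.02 (SD) in the other 5, with a gap of 0.730 of the whole range. For rno-miR-29c-5p in control it was male 3 at 6.13, against 6.24 ± 0.01, with a gap of 0.725. For rno-miR-29b-3p minus rno-miR-29a-3p at 600 ppm it was female 26 at -0.74, against -0.55 ± 0.03, with a gap of 0.655. Female 26 is the only rat of its group on slide 2.

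The dose by sex interaction passed for rno-miR-29a-3p (F = 6.78, adjusted p = 0.0199, limma) and rno-miR-29a-5p (F = 8.37, adjusted p = 0.0143), and for 25.1% of tested miRNAs. At 1500 ppm the difference of rno-miR-29a-5p from control was 0.92 lower in males than in females (value -0.92, adjusted p = 0.00361, limma), where 35.3% of tested miRNAs passed. With slide in the fit neither miRNA passed, and the value of rno-miR-29a-5p at 1500 ppm was 0.072. In both sexes the rats at 1500 ppm were on another slide than their controls, so that slide and dose cannot be told apart in these values.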

How the results depend on the processing

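No paired analysis was possible because the groups share no replicate numbers. Of 462 values under other settings, 378 kept their direction and side of the threshold, 26 passed it newly, 9 lost it, 4 reversed with the threshold passed and 45 changed sign without passing. Of 720 values with 1 array left out these counts were 688, 17, 3, 0 and 12. With both sexes in the comparison, no member passed at any dose, for any dose or for the trend in any setting run (smallest adjusted p = 0.30, or 0.303 with 1 array left out). An unpaired t-test with the 1.5-fold limit that the study used for messenger RNA called 0 members. It called 0, 3 and 2 of 283 miRNAs at 600, 1000 and 1500 ppm. The smallest unadjusted p of a member in that t-test was 0.0438, at 1500 ppm, and the fold limit alone kept this member out.

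The values that changed sign are log2 differences, and the cause was not tested. With the percentile over all probes, rno-miR-29c-3p was 0.0092 at 1500 ppm with a trend of 0.014. After quantile normalization rno-miR-29a-3p was -0.050 at 600 ppm, -0.015 at 1500 ppm, -0.050 in males and 0.020 in females at 1500 ppm, the interaction at 1500 ppm was -0.070 for rno-miR-29a-3p and -0.15 for rno-miR-29b-3p, and rno-miR-29c-3p minus rno-miR-29a-3p at 1000 ppm was -0.0014. After normexp correction the members were -0.068, -0.044 and -0.018 at 600 ppm. With the brightest probe rno-miR-29a-3p was -0.013 at 600 ppm and rno-miR-29b-3p minus rno-miR-29a-3p -0.036 at 1500 ppm, and with the total gene signal rno-miR-29a-3p was -0.0030 at 1000 ppm.

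In the unscaled series table, at 600 ppm the members were -0.055, -0.028 and -0.00012. There rno-miR-29a-3p and rno-miR-29b-3p were -0.10 and -0.13 at 1500 ppm, -0.035 and -0.043 in trend, 0.025 and 0.088 for sex, -0.50 and -0.81 for the interaction at 1500 ppm and -0.36 and -0.53 in males at 1500 ppm, and rno-miR-29a-3p was 0.15 in females. In males at 1500 ppm the median of all miRNAs was -0.66 in that table and 0.19 with the percentile over all probes, against 0.04.

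With slide in the fit rno-miR-29a-3p was -0.0040 at 1000 ppm and rno-miR-29c-3p 0.016 at 1500 ppm with a trend of 0.014. Sex was then 0.20 for rno-miR-29a-3p and 0.26 for rno-miR-29b-3p, the interaction at 1500 ppm 0.19 for rno-miR-29c-3p, and rno-miR-29b-3p and rno-miR-29c-3p were -0.026 and 0.037 in males and -0.23 and -0.16 in females at 1500 ppm. With slide as a random block rno-miR-29c-3p was 0.0070 at 1500 ppm with a trend of 0.0076, sex was 0.034 for rno-miR-29a-3p and 0.072 for rno-miR-29b-3p, and rno-miR-29b-3p and rno-miR-29c-3p were -0.015 and -0.034 in females. Probe 1 gave 0.038 for sex, -0.013 for the interaction and 0.022 in females for rno-miR-29a-3p, with -0.18 for the interaction and -0.035 in males for rno-miR-29b-3p. Probe 2 gave -0.013 for rno-miR-29a-3p at 600 ppm.

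With slide means removed, rno-miR-29b-3p minus rno-miR-29a-3p was -0.016 and rno-miR-29c-3p minus rno-miR-29a-3p -0.0029 at 600 ppm, the latter 0.0062 at 1500 ppm, and rno-miR-29c-3p minus rno-miR-29b-3p 0.0069 at 1000 ppm. That step also takes out part of any dose difference, since the slides hold the dose groups unevenly. The correlation of rno-miR-29a-3p and rno-miR-29c-3p became 0.96, or 0.14 after quantile normalization, and that of rno-miR-29b-3p and rno-miR-29c-3p 0.90, or -0.065 with the brightest probe.

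For sex 1 member passed with the percentile over all probes, quantile normalization, total gene signal or probe 1, and 2 with the brightest probe or probe 2, against 0. For the interaction at 1500 ppm 1 passed with the percentile over all probes, quantile normalization, the strict filter, the brightest probe, total gene signal, other eBayes options or either single probe, and 2 in the series table, against 0. In males at 1500 ppm 0 passed after normexp or with slide as a fixed or random block, 2 with the percentile over all probes, the brightest probe, total gene signal or probe 2, and 3 in the series table, against 1. For the interaction over all doses 0 passed after quantile normalization, normexp, either slide block or with probe 1, and 3 in the series table, against 1. Over the whole array, calls in males at 1500 ppm numbered 145 with the percentile over all probes and 98 with total gene signal. They numbered 197, of which 1 was higher, in the series table, against 102. For sex they numbered 83 with the percentile over all probes, 110 after quantile normalization and 96 with total gene signal, against 124. Whole-array counts for the interactions and the remaining settings are not given for comparison.

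With 1 array left out, rno-miR-29a-3p ranged from -0.034 to 0.058 at 600 ppm, -0.0055 to 0.066 at 1000 ppm and -0.10 to 0.028 in females at 1500 ppm, rno-miR-29b-3p from -0.017 to 0.078 at 600 ppm and from -0.020 to 0.13 for the interaction at 1500 ppm. The members passing ranged from 0 to 2 for sex and for the interaction at 1500 ppm, and from 0 to 1 in males at 1500 ppm and for the interaction over all doses. The interaction of rno-miR-29a-3p fell below the threshold without 1500 ppm male 17 (F = 4.96, adjusted p = 0.0544) or 1500 ppm female 36 (F = 5.05, 0.0540). The calls of rno-miR-29a-5p (sex, males at 1500 ppm and both interactions) kept their side of the threshold with any 1 array left out, and were lost after normexp (sex -0.16, interaction at 1500 ppm 0.016) and with slide as a fixed block (interaction at 1500 ppm 0.072) or a random block. The total gene signal also lost its interaction over all doses (F = 3.93, adjusted p = 0.0851).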
